A study of Mus musculus with 18 samples.

Results

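Interferon responsive genes were followed in the ventricular myocardium of leptin-deficient ob/ob mice that were fed freely, calorie restricted or given leptin, and of wild type mice. The set is a list of 45 gene symbols, from antiviral effectors such as Rsad2 and Ifit1 to the transcription factors and sensors of the interferon response. Each gene was read by the probe set with the highest mean over the 18 arrays, among the probe sets that the platform annotation assigns to 1 symbol. Of the 45 genes, 43 had such a probe set and 40 passed the filter on low signal, out of 10916 genes tested. Isg15 and Ifi44 had no single-gene probe set and were not analysed here. Zbp1, Mx1 and Mx2 fell under the filter and were not tested.

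Hybridization signals on Affymetrix mouse arrays came from 4 groups. Wild type C57Bl/6J mice of 6 to 8 months made up 4 samples. The other 14 samples came from ob/ob mice on the same background, which lack functional leptin in every tissue and become obese. They were aged to 6 months on free feeding and then spent 1 month under 1 of 3 regimens. In the ad libitum group (n = 4) free feeding went on. In the leptin group (n = 5) an osmotic mini-pump delivered leptin. In the calorie restricted group (n = 5) food was limited to the caloric intake of the leptin group. Calorie restricted and leptin mice were thus matched for calories and differed in leptin, and neither treatment was given to wild type mice. The labels give 1 sample per array and do not say how litters or cages were spread over the groups, so p-values reflect only how far these samples spread, which may be partly technical.

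Interferons are secreted proteins that cells release on sensing viral nucleic acid, and they also act at a low tonic level in healthy tissue. Type I and type II interferons bind separate receptors, activate Jak kinases and send Stat proteins to the nucleus, where a complex with Irf9 binds the interferon-stimulated response element (ISRE). The genes so switched on restrict viral RNA, membranes and protein synthesis, and some of them, such as Usp18, damp the response again. In the heart, cardiomyocytes, endothelial cells, fibroblasts and resident macrophages can all express them.

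The ISRE core was searched on both strands as GAAA and GAAA with any 2 bases between them (TTTC and TTTC on the other strand) in the RefSeq promoter windows, which run from 250 bases before to 50 bases after a gene's start on build GRCm38.p6. A window was given for 34 of the 45 genes, and 16 of the 34 (47.1%) held the core, against 3.99% of all genes and 3.44% of all windows of this length. Among genes with a window that were lower in calorie restricted than in wild type hearts, 10 of 17 held it, and among those tested and not called there, 5 of 15 held it. The gamma-activated site TTCNNNGAA, which reads the same on both strands and may share bases with the ISRE core, was in a window of 12 of the 34 genes (35.3%) and of 9.55% of all genes. It was in 5 of the same 17 called genes and in 7 of the 15 not called, so its split ran the other way. Of the 10 called genes with an ISRE core, 8 had a match that lay wholly upstream of the start, and these stretches are printed 5′ to 3′ on the gene's own strand because their genes carry the main result. Capitals mark every match to the core, and runs longer than 10 letters are overlapping matches.
Rsad2 (chr12:26456543-26456592, minus strand): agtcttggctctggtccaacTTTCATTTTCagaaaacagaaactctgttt
Ifit1 (chr19:34640765-34640833, plus strand): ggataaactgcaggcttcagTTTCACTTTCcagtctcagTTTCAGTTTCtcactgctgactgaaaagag
Ifit3 (chr19:34583353-34583436, plus strand): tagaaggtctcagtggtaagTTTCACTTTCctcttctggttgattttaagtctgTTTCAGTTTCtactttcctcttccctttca
Oas1a (chr5:120907526-120907565, minus strand): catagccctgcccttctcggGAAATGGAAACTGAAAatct
Ifitm2 (chr7:140955978-140956027, minus strand): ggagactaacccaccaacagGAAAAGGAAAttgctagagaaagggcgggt
Bst2 (chr8:71537567-71537622, minus strand): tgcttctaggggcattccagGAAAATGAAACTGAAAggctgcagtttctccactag
Gbp2 (chr3:142620584-142620633, plus strand): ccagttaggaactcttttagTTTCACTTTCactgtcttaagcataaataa
Gbp3 (chr3:142559979-142560034, plus strand): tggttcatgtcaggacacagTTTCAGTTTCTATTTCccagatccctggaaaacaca

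In these 8 genes the core lay within 156 bases of the start, and in Oas1a its last base was 5 bases before it. A match of letters is a description and shows no binding.

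The mean signal without 2% at each end was 100.001 on every array, so likeness in overall signal was set by scaling and is no check of the arrays. The median signal ranged from 22.3 to 31.8, the 75th percentile from 93.0 to 101, and pairwise correlations of log2 signals from 0.943 to 0.971. Ventricular cardiomyocyte markers were Myh6, Tnnt2, Tnni3, Actc1, Myl2, Ryr2 and Pln. Their summed signal was 39492 to 42864 in wild type and 44222 to 51055 in ad libitum hearts. It was 45559 to 58710 in calorie restricted and 38948 to 52862 in leptin hearts. Every ad libitum and calorie restricted array was thus above every wild type array. None of the 7 was called in any of the 3 contrasts with calorie restricted hearts, and their median for calorie restriction minus wild type was 0.26 (log2). Atrial markers were uneven: their sum was 14409 and 14851 in calorie restricted replicates 2 and 3 and between 563.9 and 3093 on all other arrays, so these 2 arrays stand apart. Signals are linear MAS5 intensities, and differences are limma estimates on log2(signal + 5.13), which understates the change of dim genes. A gene was called where its Benjamini-Hochberg adjusted p over all 10916 genes was under 0.05. Contrasts that share a group share its arrays, so their values are set side by side and not counted as independent.

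Interferon responsive genes stood lowest in the calorie restricted hearts. The mean of 35 of the 40 genes was lowest in that group, while that group was lowest for 30.7% of all genes tested. No member was highest there, and 19 were highest in leptin hearts, 16 in wild type hearts and 5 in ad libitum hearts. The median deviation of the 40 genes from the wild type mean was between -0.72 and -0.40 on the 5 calorie restricted arrays, between -0.31 and -0.01 on the 4 ad libitum arrays, between -0.09 and 0.13 on the 5 leptin arrays and between -0.06 and 0.14 on the 4 wild type arrays (log2). Every calorie restricted array thus lay under every other array. On those arrays 34 to 39 of the 40 genes were under the wild type mean, and the median deviation of all genes was between -0.02 and 0.02 on every array.

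**Figure D1:**
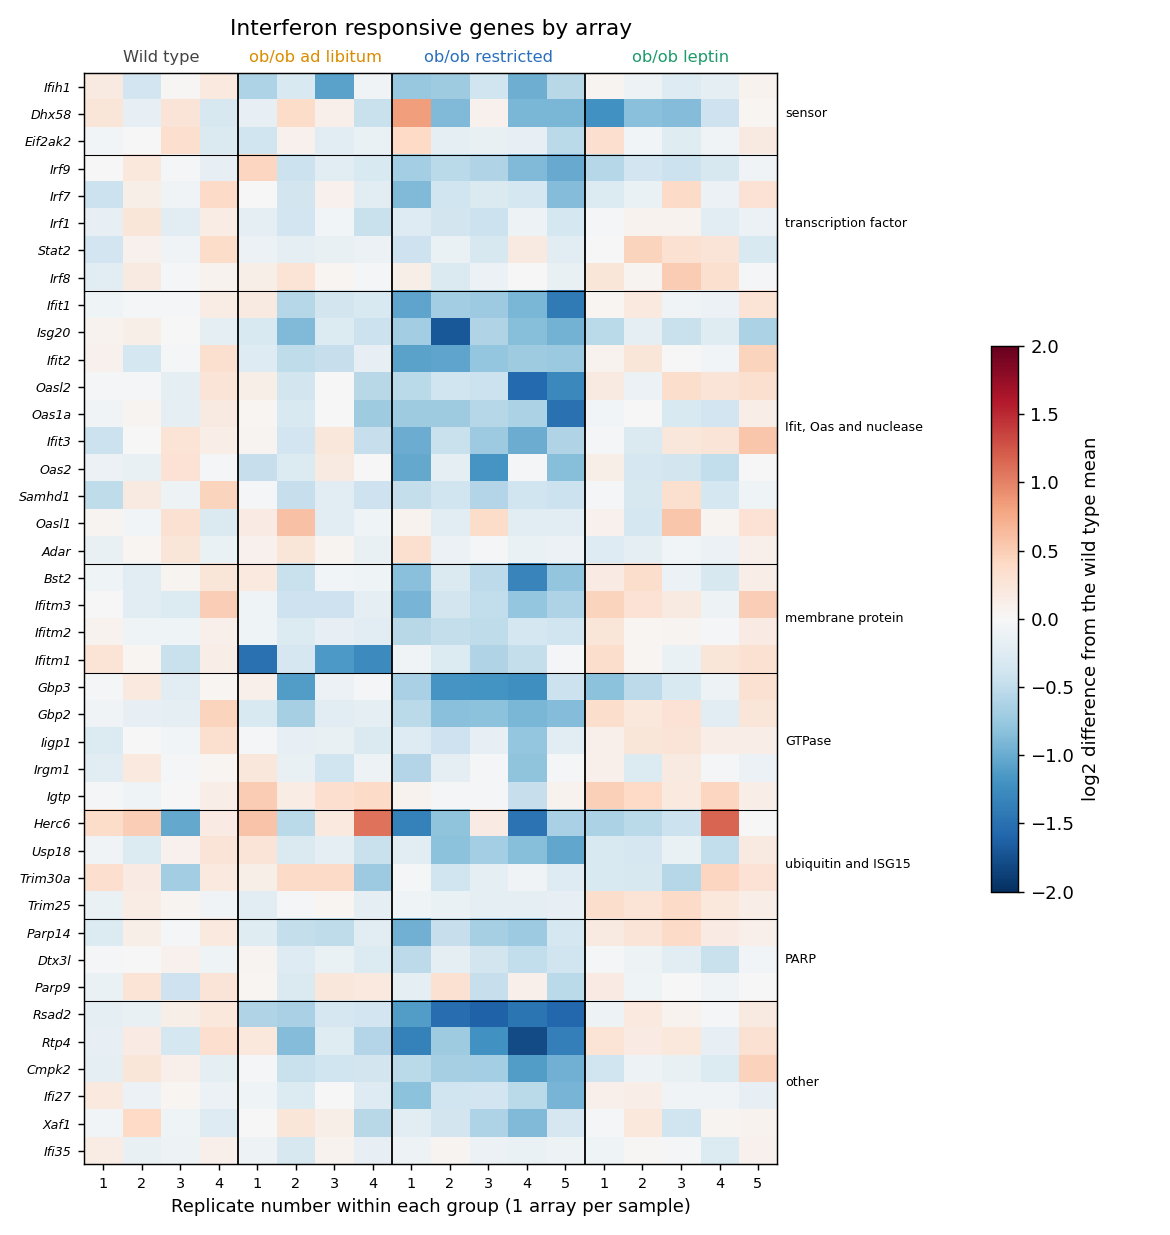
Log2 difference from the wild type mean for the 40 tested interferon responsive genes (rows, grouped by role) on the 18 arrays (columns, grouped as wild type, ad libitum, calorie restricted and leptin). The 5 calorie restricted columns are mostly below 0, with 34 to 39 genes under the wild type mean on each.

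Leptin against calorie restriction, at matched calories, gave 21 of 40 genes called higher and none lower, where 10.4% of all genes were called higher and 7.50% lower. The median difference of the 40 genes was 0.52 (log2), against -0.01 for all genes, and 38 of 40 differences were above 0 (48.2% of all genes). The exceptions were Dhx58 and Adar. In 19 genes every leptin array was above every calorie restricted array, which was so for 7.47% of all genes. Leaving out any 1 array left 19 to 23 genes called, and 18 of the 21 kept their call in every such fit and under every other alternative that tested them. The 3 that did not were Isg20, Usp18 and Irf7.

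Calorie restricted against wild type hearts gave 22 genes called lower and none higher, where 8.21% of all genes were called lower and 6.75% higher. All 40 differences were below 0 (49.7% of all genes), with a median of -0.59, against 0.00 for all genes. In 19 genes every calorie restricted array was below every wild type array (7.94% of all genes). Leaving out any 1 array left 19 to 23 genes called, and 19 of the 22 kept their call in every such fit. Under all alternatives that tested the gene, 17 kept it, and Parp14, Oasl2, Gbp3, Irf7 and Oas2 did not. These groups differ both in the ob mutation and in feeding.

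Calorie restricted against ad libitum hearts, both without leptin, gave 9 genes called lower and 1 higher, where 4.44% and 3.53% of all genes were called. Irf9, Ifit1, Ifit2, Ifitm2, Bst2, Igtp, Rsad2, Ifi27 and Rtp4 were lower, and Ifitm1 was higher. The median of the 40 genes was -0.39, with 37 below 0 (50.7% of all genes), and 25 had an unadjusted p under 0.05 (22.0% of all genes). In 8 genes every calorie restricted array was below every ad libitum array (5.76% of all genes). The count of 10 was sensitive to single arrays: 2 genes were called without ad libitum replicate 1, and 5 were called without ad libitum replicate 3 or without calorie restricted replicate 5. A fit to these 2 groups alone called 2 genes, Rsad2 (adjusted p = 0.00296) and Ifit2 (adjusted p = 0.0328). Rsad2 was the only one of the 10 to keep its call under every alternative that tested it.

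Ad libitum ob/ob against wild type hearts gave 1 call among the 40 genes, Ifitm1, which was lower. Of all genes, 0.220% were called lower and 0.165% higher. The median difference of the 40 genes was -0.16, with 33 below 0 (49.2% of all genes), and 10 genes had an unadjusted p under 0.05 (11.5% of all genes). Leptin against ad libitum hearts gave 4 genes called higher and none lower, where 0.632% of all genes were called higher and 0.412% lower: Rsad2, Parp14, Trim25 and Ifitm1. The median was 0.15, and in 7 genes every leptin array was above every ad libitum array (3.21% of all genes). The count of 4 calls fell to 1 without ad libitum replicate 2 or leptin replicate 2, and to 2 without ad libitum replicate 1 or leptin replicate 3.

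Leptin-treated ob/ob hearts were set against wild type hearts last. limma called 0 of the 40 genes, where 0.0183% of all genes were called in either direction, and 4 genes had an unadjusted p under 0.05 (11.1% of all genes). The median difference was 0.02, with 19 genes below 0 (48.9% of all genes) and 21 above. The 95% interval lay within a 1.5-fold change either way for 30 of the 40 genes and reached beyond it for 10. In 8 of those 10 the interval also held 0, so a change of that size cannot be told from none, and in Irf9 and Isg20 it lay below 0. Isg20 was lower on every leptin array than on every wild type array (1.78% of all genes) and Igtp was higher (1.80% of all genes), with adjusted p of 0.429 and 0.324.

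**Figure D2:**
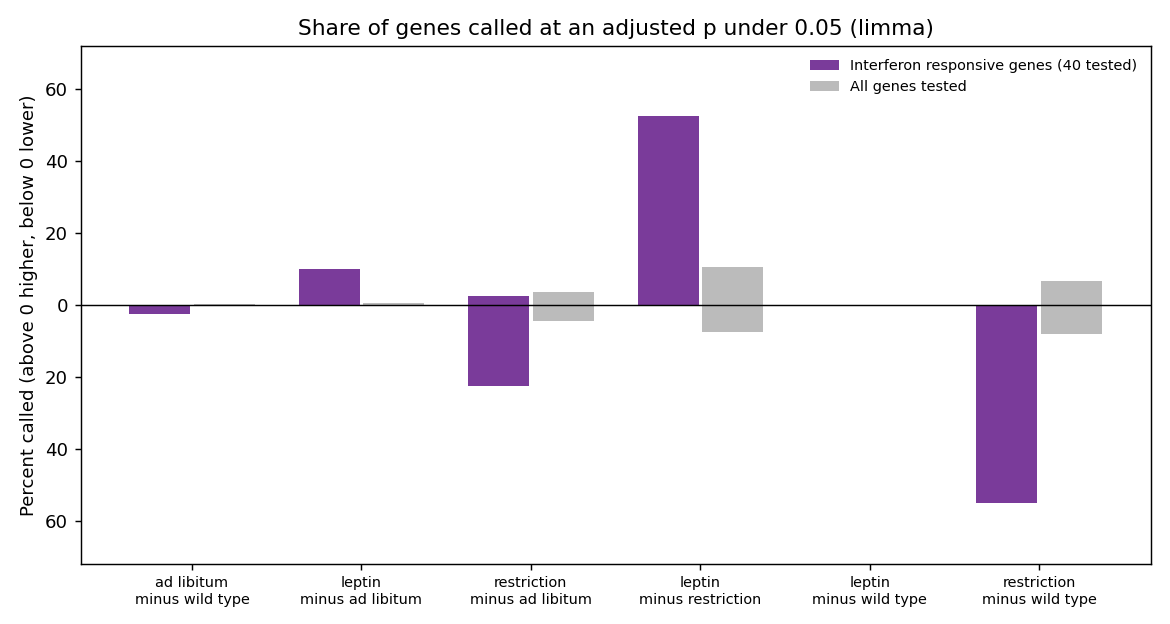
Percent of genes called (limma, adjusted p under 0.05) higher and lower in each of the 6 contrasts, for the 40 interferon responsive genes and for all 10916 genes tested. The largest shares among the 40 genes are lower calls in calorie restriction against wild type (22 genes) and higher calls in leptin against calorie restriction (21 genes).

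Markers of other cell types moved in the same contrasts. Of 14 macrophage markers listed, 13 were measured and 10 tested; Fcgr1, Itgam and Cx3cr1 were under the filter, with signals of at most 48.3. Their summed signal was 2092 to 3043 in calorie restricted, 3030 to 3920 in ad libitum hearts, 3586 to 5105 in leptin and 3343 to 6050 in wild type hearts. Against calorie restriction, leptin hearts had 9 of the 10 called higher (10.4% of all genes), all but Cd163, with a median of 0.78. Against wild type, calorie restricted hearts had 8 of the 10 called lower (8.21% of all genes), with a median of -0.88. Against ad libitum they had 4 of the 10 called lower (4.44% of all genes), Csf1r, Adgre1, C1qa and C1qb, with a median of -0.49. Adgre1, the macrophage antigen F4/80, had a mean signal of 205 in leptin and 102 in calorie restricted hearts. Endothelial markers summed to 1888 to 2144 in calorie restricted and 2437 to 2834 in leptin hearts. The sum was 2285 to 2957 in ad libitum and 1993 to 2704 in wild type hearts. Of these markers, 3 of 7 (Tek, Tie1 and Emcn) were called higher in leptin than in calorie restricted hearts (10.4% of all genes). Another count, 2 of 7 (Kdr and Tie1), was called lower in calorie restricted than in ad libitum hearts (4.44% of all genes). None of the 7 was called between calorie restricted and wild type hearts (median -0.20). Of 6 fibroblast markers, Col1a1, Lum and Mfap5 were called in the same direction as the macrophage markers in all 3 contrasts. The shares of all genes were those given for the macrophage markers. The summed fibroblast signal overlapped, with 3705 to 4868 in calorie restricted and 4223 to 5300 in leptin hearts. T and NK cell, B cell and neutrophil markers were near background: 1 of 9, 0 of 3 and 0 of 3 measured genes passed the filter. The red cell gene Alas2 was lower in calorie restricted than in wild type hearts (difference -1.48 ± 0.43, adjusted p = 0.0265). Of 3 smooth muscle markers tested, only Tagln was called, higher in calorie restricted than in ad libitum and wild type hearts. Its differences were 0.59 ± 0.15 and 0.51 ± 0.15 (limma adjusted p = 0.0218 and 0.0292), where 3.53% and 6.75% of all genes were called higher. The medians of the 3 were 0.25 and 0.14. The summed smooth muscle signal was 1216 to 1630 in calorie restricted, 1073 to 1227 in ad libitum and 1152 to 2010 in wild type hearts. In whole myocardium, fewer cells of a type and less RNA per cell cannot be told apart. The part of these cell types in the interferon gene differences was not tested.

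**Figure D3:**
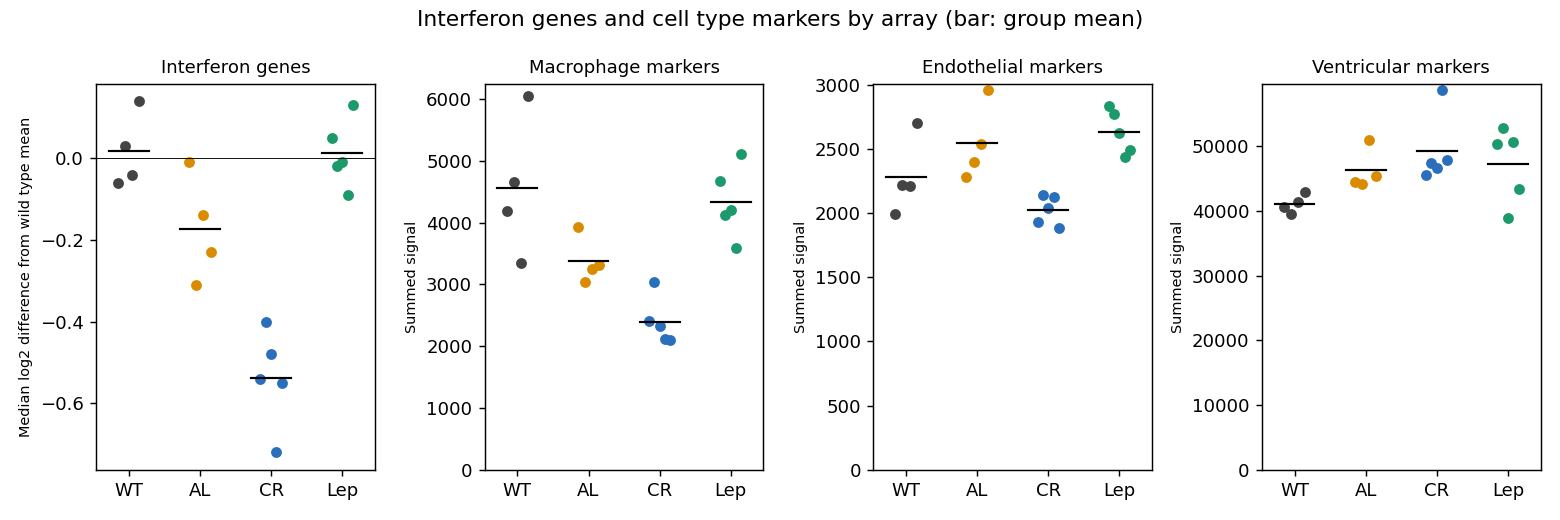
Median log2 deviation of the 40 interferon responsive genes from the wild type mean, and the summed signals of the macrophage, endothelial and ventricular cardiomyocyte markers, on each array (points) by group; WT is wild type, AL ad libitum, CR calorie restricted and Lep leptin. The calorie restricted arrays are lowest for the interferon genes (-0.72 to -0.40) and low for macrophage markers (2092 to 3043). The ventricular markers run from 38948 to 58710 over all arrays, with 39492 to 42864 in wild type and 45559 to 58710 in calorie restricted hearts.

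The genes upstream of the response were read from a second list. This list of 45 ligands, receptors, signalling proteins and nucleic acid sensing genes had 24 tested members. The 8 interferon ligands measured, Ifnb1, Ifng and 6 others, were all under the filter, with no array above 45.3. The type I receptor genes Ifnar1 and Ifnar2 were not called in any contrast; leptin minus calorie restriction was 0.09 ± 0.09 and 0.06 ± 0.06 (log2, SE). Ifngr2, a chain of the type II receptor, was lower in calorie restricted than in ad libitum hearts (difference -0.37 ± 0.11, adjusted p = 0.0454) and than in wild type hearts (difference -0.45 ± 0.11, adjusted p = 0.0100), and higher in leptin than in calorie restricted hearts by 0.35 ± 0.10 (adjusted p = 0.0241). Jak1, the kinase that serves both receptors, differed by -0.42 ± 0.12, -0.61 ± 0.12 and 0.39 ± 0.12 in the same contrasts (adjusted p = 0.0463, 0.00286 and 0.0283). Tyk2 and Stat3 were not called. The RNA sensor Tlr3 and the kinase Tbk1 were higher in leptin than in calorie restricted hearts, by 0.41 ± 0.14 and 0.36 ± 0.11 (adjusted p = 0.0460 and 0.0297). In calorie restricted against wild type hearts the feedback inhibitor Socs3 was lower (difference -0.78 ± 0.21, adjusted p = 0.0174). Socs3 was also below wild type, without a call, in ad libitum and leptin hearts (-0.73 ± 0.22 and -0.53 ± 0.21). Its calorie restriction minus ad libitum difference was -0.04 ± 0.21. Pias1 and the adaptor Ticam1 were higher in calorie restricted than in wild type hearts, by 0.25 ± 0.07 and 0.72 ± 0.20 (adjusted p = 0.0288 and 0.0227). In all, 4 of 24 were higher in leptin than in calorie restricted hearts (10.4% of all genes) and 2 were lower in calorie restricted than in ad libitum hearts (4.44% of all genes). In calorie restricted against wild type hearts 3 were lower (8.21% of all genes) and 2 higher (6.75%). limma called 0 of the 24 in the other contrasts. There 6 had an unadjusted p under 0.05 for ad libitum minus wild type (11.5% of all genes). For leptin minus ad libitum 2 had one (15.2% of all genes), and for leptin minus wild type 3 (11.1% of all genes).

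Among the sensors, 3 of 4 were tested and only Ifih1 was called. Ifih1 encodes MDA5, which detects long double-stranded RNA in the cytoplasm. Its signal was 66.3 to 102 in wild type hearts, 39.4 to 83.8 in ad libitum hearts, 42.5 to 66.1 in calorie restricted and 72.9 to 92.6 in leptin hearts, so calorie restricted arrays overlapped only the ad libitum ones. It was 0.60 ± 0.16 higher in leptin than in calorie restricted hearts (adjusted p = 0.0170) and was lower in calorie restricted than in wild type hearts (difference -0.68 ± 0.17, adjusted p = 0.0131). Eif2ak2, the RNA-activated kinase PKR that blocks translation, was not called, with differences of 0.15 and -0.12 in these contrasts. Dhx58, or LGP2, a relative of MDA5 that regulates RNA sensing, was the member with the second-largest difference among those not called: leptin minus wild type was -0.66 (adjusted p = 0.464), and its signal ran from 21.5 to 84.1 within the calorie restricted group alone. The untested Zbp1, a sensor of Z-form nucleic acid, had signals of 4.54 to 27.0.

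Of the 5 transcription factors, Irf9 and Irf7 were called. Irf9 is the DNA-binding partner of the Stat proteins at the ISRE. Its signals were 87.6, 103, 86.1 and 78.8 in wild type hearts, 121, 64.3, 75.2 and 70.4 in ad libitum hearts, 53.1, 59.3, 56.3, 45.6 and 41.6 in calorie restricted and 57.9, 66.6, 64.3, 69.6 and 84.1 in leptin hearts. The calorie restricted arrays were below all wild type and ad libitum arrays, and the leptin arrays overlapped each of the other groups. Irf9 was lower in calorie restricted than in wild type hearts (difference -0.74 ± 0.15, adjusted p = 0.00322) and than in ad libitum hearts (difference -0.61 ± 0.15, adjusted p = 0.0203). The latter call was lost without ad libitum replicate 1 or calorie restricted replicate 5 (adjusted p = 0.0502 to 0.0588). Leptin minus calorie restriction was 0.39 ± 0.14 (adjusted p = 0.0728). Irf7, the amplifier of type I interferon production, was 45.3 to 70.6 in calorie restricted and 71.2 to 116 in leptin hearts. Its difference of 0.59 ± 0.17 was called (adjusted p = 0.0229), as was -0.56 ± 0.18 against wild type (adjusted p = 0.0457), and both calls were fragile: the first was lost without calorie restricted replicate 1 or 5 or leptin replicate 3 or 5 (adjusted p = 0.0574 to 0.0615), the second without calorie restricted replicate 1, 2 or 5 or wild type replicate 2, 3 or 4 (adjusted p = 0.0554 to 0.147). Irf1, a factor strongly induced by type II interferon, was among the 2 brightest members not called, with mean signals of 357 ± 58.8 in wild type hearts, 295 ± 36.7 in ad libitum hearts, 286 ± 27.0 in calorie restricted and 343 ± 28.4 in leptin hearts (SD). Stat2 and the macrophage and dendritic cell factor Irf8 were not called.

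The Ifit proteins, Oas enzymes and nucleases act on viral RNA, and 6 of these 10 genes were higher in leptin than in calorie restricted hearts (10.4% of all genes), while 7 were lower in calorie restricted than in wild type hearts (8.21% of all genes). Ifit1, which binds RNA lacking a host-type cap, had signals of 72.5, 75.6, 74.9 and 85.8 in wild type hearts, 88.2, 50.0, 58.4 and 61.4 in ad libitum hearts, 34.6, 45.7, 44.5, 38.3 and 25.8 in calorie restricted and 79.7, 89.1, 73.3, 70.4 and 94.5 in leptin hearts. All calorie restricted arrays were below all others. The leptin to calorie restriction difference was 1.03 ± 0.14 (2.04-fold, adjusted p = 1.31e-04), the difference from wild type was -0.96 ± 0.15 (adjusted p = 4.84e-04) and that from ad libitum was -0.69 ± 0.15 (adjusted p = 0.00930). Ifit1 and Rsad2 were the 2 genes whose call against ad libitum was kept without any single array, but in the fit to those 2 groups alone the Ifit1 call was lost (adjusted p = 0.0595).

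Ifit2 and Ifit3 belong to the same family and bind Ifit1 or RNA. Ifit2 signals were 60.2, 43.2, 54.6 and 71.8 in wild type hearts, 46.3, 38.2, 39.6 and 49.9 in ad libitum hearts, 24.2, 24.5, 31.1, 32.4 and 31.8 in calorie restricted and 59.6, 67.6, 56.8, 54.0 and 79.3 in leptin hearts. The calorie restricted, ad libitum and leptin arrays fell in 3 separate ranges in that order. The leptin minus calorie restriction difference was 1.01 ± 0.13 (adjusted p = 6.13e-05), calorie restriction minus wild type -0.87 ± 0.14 (adjusted p = 4.34e-04) and calorie restriction minus ad libitum -0.52 ± 0.14 (adjusted p = 0.0254). The last call was lost without ad libitum replicate 1 or 4 or calorie restricted replicate 1 or 2 (adjusted p = 0.0554 to 0.0861). Ifit3 signals were 68.2, 94.7, 115 and 103 in wild type hearts, 97.6, 71.0, 110 and 66.8 in ad libitum hearts, 44.6, 67.4, 54.4, 44.3 and 60.2 in calorie restricted and 90.5, 75.4, 110, 112 and 141 in leptin hearts. Only 1 ad libitum array reached into the calorie restricted range. Ifit3 differed by 0.89 ± 0.18 between leptin and calorie restriction (adjusted p = 0.00230) and by -0.75 ± 0.19 between calorie restriction and wild type (adjusted p = 0.0120), and the difference from ad libitum was not called (-0.61, adjusted p = 0.0543).

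The Oas enzymes make an adenylate messenger that activates RNase L, and Oasl2 is a relative of them. Oasl2 signals were 69.8, 70.4, 62.1 and 87.4 in wild type hearts, 78.6, 54.3, 71.3 and 47.1 in ad libitum hearts, 48.0, 53.3, 51.9, 21.1 and 26.5 in calorie restricted and 82.0, 66.0, 93.0, 86.5 and 90.7 in leptin hearts. Calorie restricted replicates 4 and 5 were the lowest, and the group overlapped only the ad libitum arrays. Its differences were 1.04 ± 0.20 (2.05-fold, adjusted p = 0.00214) for leptin minus calorie restriction and -0.84 ± 0.22 (adjusted p = 0.0142) for calorie restriction minus wild type; the latter call was lost in the fit to those 2 groups alone (adjusted p = 0.0549). Oas1a was 94.3 to 122 in wild type hearts, 63.6 to 110 in ad libitum hearts, 34.6 to 70.0 in calorie restricted and 81.1 to 118 in leptin hearts, with differences of 0.71 ± 0.17 and -0.83 ± 0.18 in the same contrasts (adjusted p = 0.00829 and 0.00526). Oas2 was called only in calorie restriction minus wild type (-0.65 ± 0.22, adjusted p = 0.0498), and that call was lost without any 1 of the 4 wild type arrays or without calorie restricted replicate 1, 3 or 5 (adjusted p = 0.0731 to 0.135). Oasl1 was not called.

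Isg20, an exonuclease that degrades RNA, had signals of 71.4, 74.5, 67.8 and 59.1 in wild type hearts, 54.2, 34.5, 55.1 and 49.1 in ad libitum hearts, 39.8, 17.5, 43.2, 35.5 and 32.8 in calorie restricted and 45.2, 58.6, 48.8, 56.3 and 42.2 in leptin hearts. Every wild type array was above every ob/ob array of any regimen. Calorie restriction minus wild type was -0.96 ± 0.18 (adjusted p = 0.00186), while the ad libitum and leptin differences from wild type, -0.47 ± 0.19 and -0.41 ± 0.18, were not called. Leptin minus calorie restriction was 0.55 ± 0.17 (adjusted p = 0.0347), a call lost without calorie restricted replicate 2 or 5 or leptin replicate 2, 3 or 4 (adjusted p = 0.0545 to 0.0846); without calorie restricted replicate 2 the difference was 0.36. Samhd1, which breaks down nucleotides, and Adar, the RNA-editing enzyme, were not called.

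The 4 membrane proteins split between a shared pattern and Ifitm1. Ifitm2 and Ifitm3 sit in membranes and block viral fusion. Ifitm2 signals were 1227, 1110, 1106 and 1256 in wild type hearts, 1102, 964, 1046 and 999 in ad libitum hearts, 795, 839, 825, 922 and 884 in calorie restricted and 1391, 1200, 1216, 1144 and 1316 in leptin hearts. The 3 ob/ob groups did not overlap, in the order calorie restricted, ad libitum, leptin. Its differences were small and tight: 0.55 ± 0.07 for leptin minus calorie restriction (adjusted p = 8.14e-05), -0.46 ± 0.08 for calorie restriction minus wild type (adjusted p = 7.52e-04) and -0.27 ± 0.08 for calorie restriction minus ad libitum (adjusted p = 0.0406). The last was lost without ad libitum replicate 1, 3 or 4 or calorie restricted replicate 1, 2, 3 or 5 (adjusted p = 0.0540 to 0.118).

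Ifitm3 signals were 1464, 1268, 1222 and 2066 in wild type hearts, 1380, 1106, 1108 and 1279 in ad libitum hearts, 770, 1144, 1050, 863 and 960 in calorie restricted and 2008, 1800, 1661, 1373 and 2080 in leptin hearts. Calorie restricted arrays were below all wild type and leptin arrays and overlapped the ad libitum ones. The leptin minus calorie restriction difference was 0.89 ± 0.15 (adjusted p = 5.83e-04) and calorie restriction minus wild type -0.63 ± 0.16 (adjusted p = 0.0120). Bst2, or tetherin, which holds budding virus at the cell surface, was 41.2 to 89.7 in calorie restricted, 79.7 to 128 in ad libitum hearts, 93.9 to 132 in wild type and 87.5 to 143 in leptin hearts. It differed by 0.79 ± 0.17, -0.75 ± 0.18 and -0.65 ± 0.18 for leptin minus calorie restriction, calorie restriction minus wild type and calorie restriction minus ad libitum (adjusted p = 0.00443, 0.0107 and 0.0370). The last was lost without ad libitum replicate 1, 3 or 4 or calorie restricted replicate 1, 4 or 5 (adjusted p = 0.0635 to 0.115). It was also lost in 5 other settings, among them the limma fit to these 2 groups alone (adjusted p = 0.0971). With the atrial markers as a covariate it was -0.98 and called. The same covariate removed the calls of Ifit2 and Ifitm2 for calorie restriction minus ad libitum. It also removed the call of Isg20 for leptin minus calorie restriction and of Oas2 for calorie restriction minus wild type.

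Ifitm1 was low in the ad libitum group instead. Its signals were 141, 119, 83.4 and 126 in wild type hearts, 37.9, 90.2, 49.2 and 44.6 in ad libitum hearts, 109, 94.7, 74.8, 81.1 and 114 in calorie restricted and 149, 118, 105, 138 and 143 in leptin hearts. Ad libitum replicate 2, at 90.2, was the array of its group that overlapped the wild type and calorie restricted ranges. Ad libitum minus wild type was -1.06 ± 0.21 (adjusted p = 0.0338), leptin minus ad libitum 1.22 ± 0.20 (2.33-fold, adjusted p = 0.00576) and calorie restriction minus ad libitum 0.77 ± 0.20 (adjusted p = 0.0251). The leptin call was kept without any single array. The first was lost without ad libitum replicate 1, 3 or 4 or wild type replicate 1, 2 or 4 (adjusted p = 0.0716 to 0.111), and the third without ad libitum replicate 1, 3 or 4 or calorie restricted replicate 1 or 5 (adjusted p = 0.0520 to 0.0875).

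**Figure D4:**
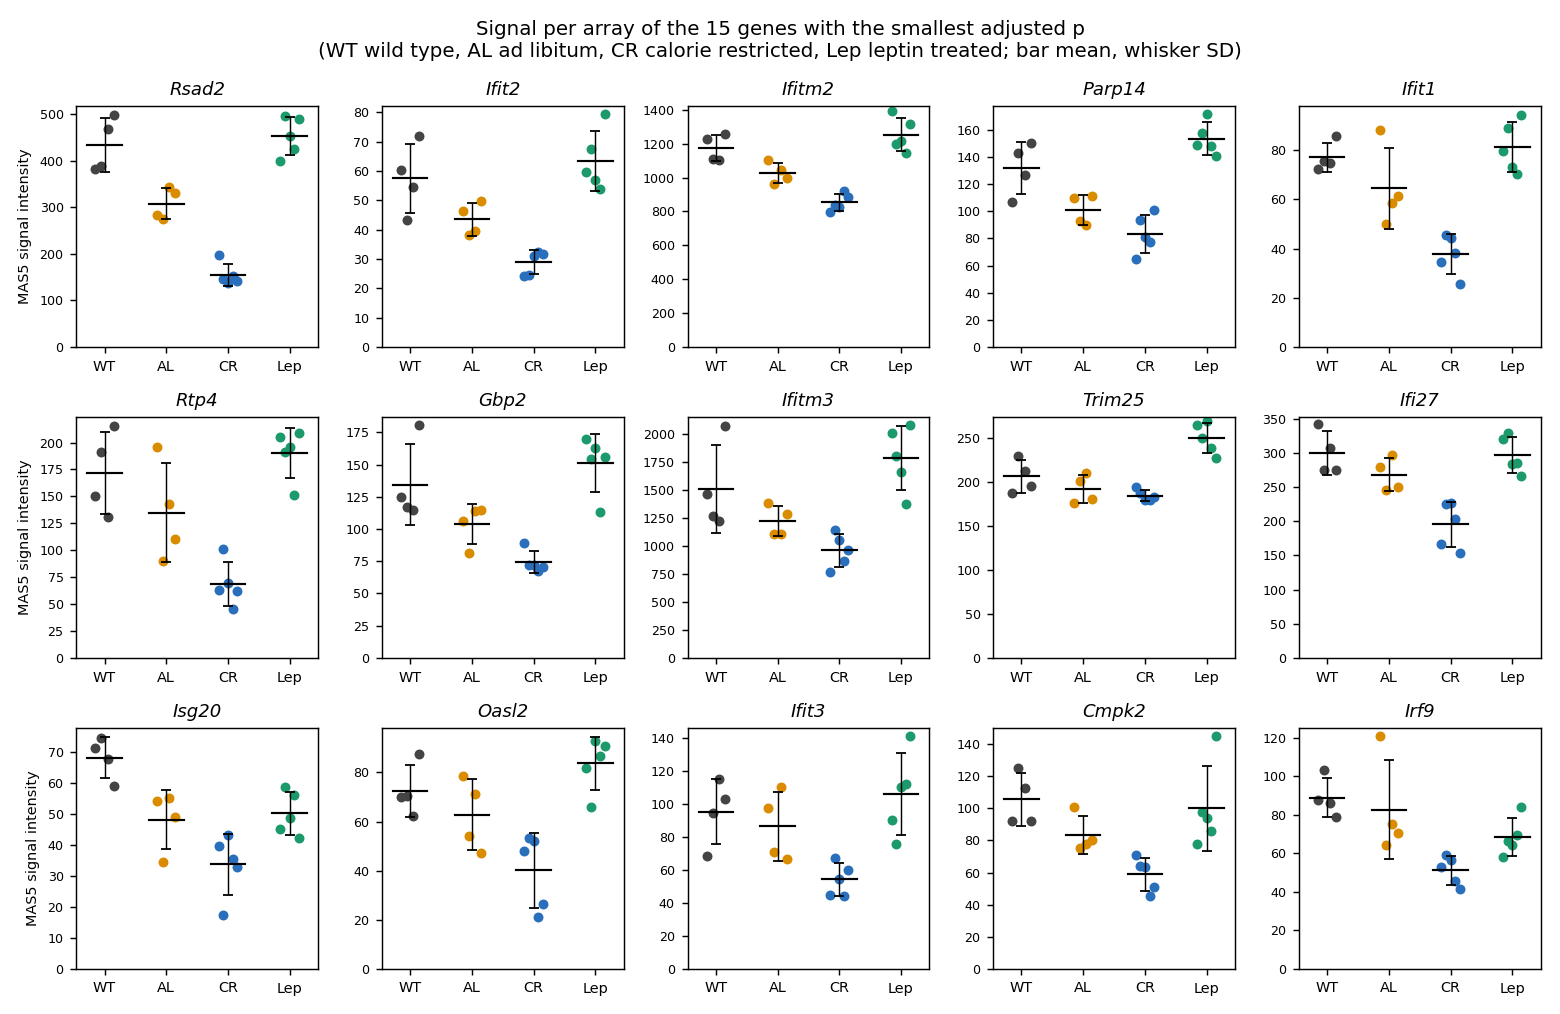
MAS5 signal on each array (points) with the group mean and SD for the 15 interferon responsive genes with the smallest adjusted p in any contrast, in the 4 groups. For Rsad2 the calorie restricted arrays lie between 138 and 197 and all other arrays between 275 and 499.

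The guanylate-binding proteins and immunity-related GTPases attack the membranes around intracellular microbes, and 5 of the 7 listed GTPases were tested. Gbp2 signals were 125, 117, 115 and 181 in wild type hearts, 106, 81.2, 114 and 115 in ad libitum hearts, 89.0, 71.7, 72.2, 67.7 and 70.3 in calorie restricted and 170, 154, 163, 113 and 156 in leptin hearts. Calorie restricted replicate 1 was the one array of that group to reach the ad libitum range. Gbp2 differed by 0.97 ± 0.14 for leptin minus calorie restriction (adjusted p = 1.33e-04) and by -0.80 ± 0.14 for calorie restriction minus wild type (adjusted p = 0.00141). Gbp3 was called only in the latter contrast (-0.94 ± 0.25, adjusted p = 0.0173), and not without wild type replicate 2 (adjusted p = 0.0552).

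Iigp1 was 198 to 307 in calorie restricted and 369 to 411 in leptin hearts, a difference of 0.54 ± 0.12 (adjusted p = 0.00382). Igtp, or Irgm3, followed another order: 179 to 209 in wild type hearts, 211 to 272 in ad libitum hearts, 137 to 200 in calorie restricted and 210 to 266 in leptin hearts. It was lower in calorie restricted than in ad libitum hearts (difference -0.42 ± 0.11, adjusted p = 0.0276; lost without ad libitum replicate 1, 3 or 4, adjusted p = 0.0637 to 0.0881) and higher in leptin than in calorie restricted hearts by 0.40 ± 0.11 (adjusted p = 0.0128), and calorie restriction minus wild type was -0.08 ± 0.11. Irgm1 was not called. The untested antiviral GTPases Mx1 and Mx2 had signals of 0.821 to 15.1 and 1.84 to 6.29; the Mx1 gene is known to carry a deletion in the C57BL/6 background.

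In the ubiquitin and ISG15 group Trim25 and Usp18 were called among the 4 genes tested. Trim25 is a ubiquitin ligase that activates the RNA sensor RIG-I. Its signals were 187, 229, 213 and 196 in wild type hearts, 176, 201, 210 and 181 in ad libitum hearts, 194, 187, 179, 180 and 183 in calorie restricted and 265, 250, 269, 239 and 227 in leptin hearts. The leptin arrays were above all ad libitum and calorie restricted arrays and overlapped 1 wild type array. Leptin minus calorie restriction was 0.43 ± 0.07 (adjusted p = 8.52e-04), leptin minus ad libitum 0.37 ± 0.08 (adjusted p = 0.0278) and calorie restriction minus wild type -0.15 ± 0.08 (not called). The leptin minus ad libitum call was lost without ad libitum replicate 1, 2 or 4 or leptin replicate 1, 2 or 3 (adjusted p = 0.0564 to 0.0798).

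Usp18, the protease that removes ISG15 and blocks the type I receptor, was 31.2 to 59.8 in calorie restricted, 48.3 to 79.7 in leptin and 56.9 to 84.7 in wild type hearts. Calorie restriction minus wild type was -0.72 ± 0.18 (adjusted p = 0.00970). The leptin minus calorie restriction difference was 0.51 ± 0.17 (adjusted p = 0.0399), lost without calorie restricted replicate 2, 3, 4 or 5 or leptin replicate 1, 2, 3 or 5 (adjusted p = 0.0552 to 0.107). Herc6, the mouse ligase for ISG15, had the largest difference of any gene not called, -1.15 for calorie restriction minus ad libitum (adjusted p = 0.111), with group ranges of 14.5 to 56.1 and 32.5 to 111. Trim30a was not called.

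Parp14 and Dtx3l were called among the 3 genes of the ADP-ribosylation group. Parp14 is a mono-ADP-ribosyltransferase, and Dtx3l is a ubiquitin ligase that pairs with Parp9. Parp14 signals were 107, 143, 127 and 150 in wild type hearts, 110, 92.6, 90.1 and 111 in ad libitum hearts, 64.7, 93.2, 81.1, 77.0 and 101 in calorie restricted and 149, 158, 172, 148 and 141 in leptin hearts. Leptin arrays were above all ad libitum and calorie restricted arrays. The leptin minus calorie restriction difference was 0.85 ± 0.11 (adjusted p = 1.00e-04), calorie restriction minus wild type -0.63 ± 0.12 (adjusted p = 0.00195) and leptin minus ad libitum 0.58 ± 0.12 (adjusted p = 0.0267). The last was lost without ad libitum replicate 2 or 3 or leptin replicate 2 or 3 (adjusted p = 0.0540 to 0.0997). With the mean of all Parp14 probe sets, calorie restriction minus wild type was -0.22 and not called (adjusted p = 0.486). Dtx3l was lower in calorie restricted than in wild type hearts (difference -0.39 ± 0.10, adjusted p = 0.0122), with ranges of 141 to 181 and 194 to 218. Parp9 was not called.

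Rsad2, also called viperin, makes a chain-terminating nucleotide that stops viral RNA synthesis, and it showed the largest difference of the 40 genes. Its signals were 382, 390, 469 and 499 in wild type hearts, 283, 275, 343 and 330 in ad libitum hearts, 197, 147, 138, 153 and 142 in calorie restricted and 400, 497, 453, 426 and 489 in leptin hearts. On this highest-mean probe set, calorie restricted, ad libitum and leptin arrays did not overlap, and the ad libitum arrays were also below the wild type ones. Leptin minus calorie restriction was 1.52 ± 0.11 (2.87-fold, adjusted p = 2.59e-07), calorie restriction minus wild type -1.46 ± 0.12 (adjusted p = 6.45e-07) and calorie restriction minus ad libitum -0.97 ± 0.12 (adjusted p = 7.75e-05). Leptin minus ad libitum was 0.55 ± 0.12 (adjusted p = 0.0257), lost without ad libitum replicate 1 or 2 or leptin replicate 2 or 5 (adjusted p = 0.0520 to 0.0906) and in the fit to these 2 groups alone (adjusted p = 0.0514). Ad libitum minus wild type was -0.49 ± 0.12 (adjusted p = 0.0856), and leptin minus wild type was 0.06, with a 95% interval of -0.18 to 0.31. Further Rsad2 probe sets above the filter gave 1.12 and 0.97 for leptin minus calorie restriction and -0.70 and -1.06 for calorie restriction minus wild type. They gave -0.71 and -0.77 for calorie restriction minus ad libitum, 0.41 and 0.20 for leptin minus ad libitum, and 0.01 and -0.29 for ad libitum minus wild type. Leptin minus wild type was 0.42 and -0.09 on them.

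Cmpk2, a mitochondrial nucleotide kinase, supplies the nucleotide that Rsad2 converts. Cmpk2 signals were 92.0, 125, 113 and 92.2 in wild type hearts, 101, 75.1, 78.1 and 80.2 in ad libitum hearts, 70.8, 63.9, 63.5, 45.7 and 51.2 in calorie restricted and 78.0, 97.6, 93.7, 85.7 and 145 in leptin hearts. Calorie restricted arrays were below all others. The leptin minus calorie restriction difference was 0.70 ± 0.15 (adjusted p = 0.00413) and calorie restriction minus wild type -0.79 ± 0.16 (adjusted p = 0.00298), while calorie restriction minus ad libitum was not called (-0.48, adjusted p = 0.0803).

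Rtp4, a chaperone of membrane receptors that also binds viral RNA, had signals of 150, 191, 131 and 215 in wild type hearts, 196, 90.4, 143 and 110 in ad libitum hearts, 63.0, 101, 69.8, 45.4 and 62.1 in calorie restricted and 205, 191, 196, 151 and 209 in leptin hearts. Calorie restricted replicate 2 was the only array of that group within the ad libitum range. Rtp4 had the second-largest difference, 1.44 ± 0.20 for leptin minus calorie restriction (2.72-fold, adjusted p = 1.32e-04), with -1.29 ± 0.21 for calorie restriction minus wild type (adjusted p = 7.32e-04). Calorie restriction minus ad libitum was -0.92 ± 0.21 (adjusted p = 0.0135), lost without ad libitum replicate 1 (adjusted p = 0.0525). With the mean of all Rtp4 probe sets, leptin minus calorie restriction was 0.85 and calorie restriction minus ad libitum -0.60, and both were called.

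Ifi27, a small protein of mitochondrial and nuclear membranes, had signals of 343, 275, 307 and 275 in wild type hearts, 280, 246, 297 and 250 in ad libitum hearts, 167, 226, 227, 203 and 154 in calorie restricted and 321, 329, 284, 285 and 267 in leptin hearts. Calorie restricted arrays were again below all others. The differences were 0.61 ± 0.11 for leptin minus calorie restriction (adjusted p = 0.00120), -0.62 ± 0.12 for calorie restriction minus wild type (adjusted p = 0.00185) and -0.46 ± 0.12 for calorie restriction minus ad libitum (adjusted p = 0.0221). The last was lost without ad libitum replicate 1 or 3 or calorie restricted replicate 5 (adjusted p = 0.0506 to 0.0766). Ifi35, the other of the 2 brightest members not called, had mean signals of 339 ± 34.1 in wild type hearts, 309 ± 35.3 in ad libitum hearts, 319 ± 18.3 in calorie restricted and 326 ± 30.7 in leptin hearts (SD). Xaf1, a promoter of apoptosis, was not called.

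**Figure D5:**
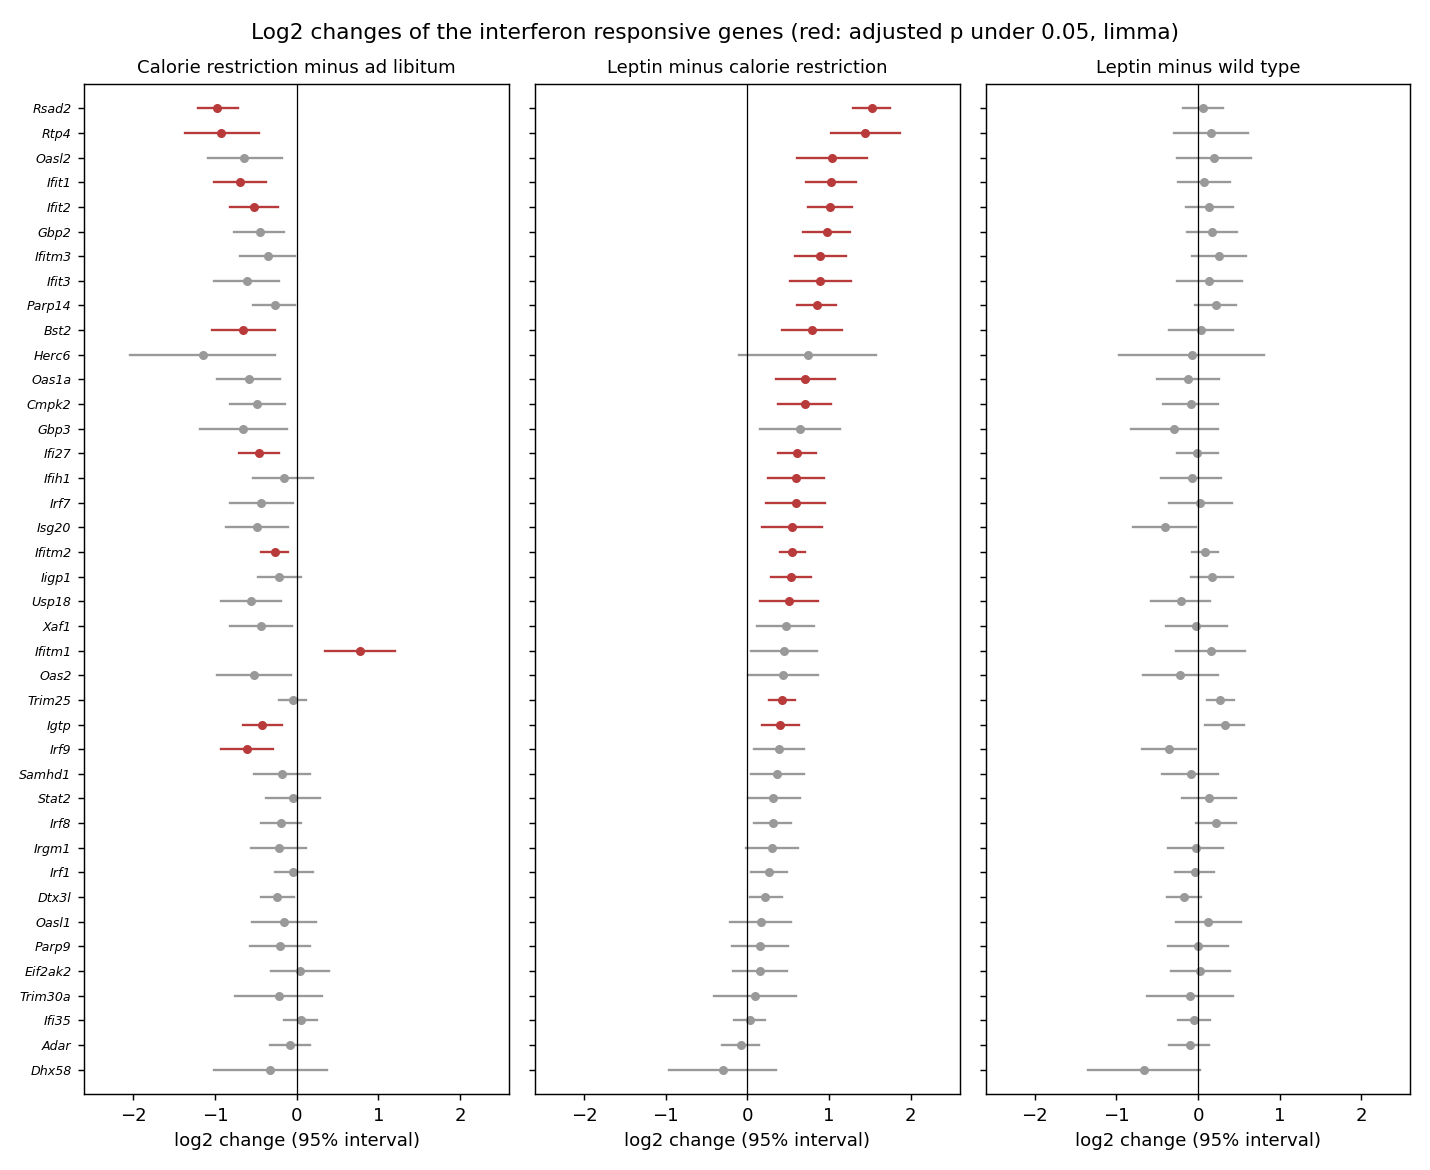
Log2 difference with its 95% interval (limma) for the 40 interferon responsive genes in calorie restriction minus ad libitum, leptin minus calorie restriction and leptin minus wild type. Of the 40 estimates, 37 are below 0 in the first contrast, 38 are above 0 in the second, and in the third 19 are below and 21 above.

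In all, 26 of the 40 tested genes were called in at least 1 of the 6 contrasts and 14 were not. The share of all genes called in at least 1 contrast was not computed. Single contrasts called between 0.0183% and 17.9% of all genes in either direction. The 14 had group mean signals between 28.1 and 357, so they covered dim and bright genes alike. Members varied somewhat more between arrays of a group than other genes did: the median SD within a group was 0.21 to 0.25 for the 40 genes and 0.17 to 0.18 for all genes (log2). A second view came from 30 further single-gene probe sets of 19 of these genes, of which 17 were above the filter. Their leptin minus calorie restriction difference had the sign of the main probe set in 13 of 17, and in 7 of 7 for genes called in that contrast. These 7 belonged to Gbp2, Iigp1, Trim25, Rsad2 and Ifi27 only. The other genes called there had no further probe set above the filter, so they had no such second view. The sets with the other sign belonged to Samhd1, Adar and Dtx3l. Ifit, Oas, Ifitm, guanylate-binding and Irg genes have close relatives, so a probe set may also read a relative, and the values of single members of these families are uncertain to that extent. The same holds for the probe sets of Trim25, Ifi27 and Ifi35, whose type is one that can match several transcripts.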

How the data were processed

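Total RNA from ventricular myocardium was hybridized to 18 Affymetrix mouse arrays. The deposited values are linear signal intensities per probe set, made by the authors with MAS5 per the submitters' processing notes (version not given in the sources used here). The trimmed mean without 2% at each end was 100.001 on every array. Probe sets numbered 45101; 34945 carried 1 gene symbol, 932 several and 9160 were not named, and 34741 were matched to RefSeq with no symbol changed.

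The highest-mean probe set stood for each of 18193 genes. Genes under the 40th percentile of gene means (5.18 on log2) were left out. The pseudocount of 5.13 is the 20th percentile of all signals. limma 3.58.1 in R 4.3.3 fitted 1 coefficient per group over all arrays and gave 6 contrasts, with Benjamini-Hochberg adjustment over 10916 genes; the fit was checked on simulated data. Promoter motifs and figures were made in Python 3.11.15 with matplotlib 3.10.9. Summed marker levels add linear signals of all measured markers. Arrays carry no read depth, so their number limits precision.

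Members and lists were chosen with earlier results of these data known. Errors after ± are limma standard errors unless given as SD. Values on every array are given for the 15 called members with the smallest adjusted p, and values for the 2 brightest and the 2 most different members not called; Ifitm1 was shown in full and the other called members by range after their values were seen. The labels do not say whether replicate numbers pair the samples. Over 25 same-numbered pairs the correlation of deviations ran from -0.20 to 0.44, with a median of -0.01. Over 96 pairs with different numbers it ran from -0.40 to 0.38, with a median of 0.02. These overlapping ranges cannot settle whether samples were paired. Alternatives covered normalization, pseudocount, filter, probe set choice, weights, variance model, covariate, block, samples in the fit and each array left out; a filter on probe-set means was added after the data were seen. Detection calls, slide and scan batches were not analysed here.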

Additional observations from a re-analysis of the deposited data

Results flagged for a closer look

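In 80 sets of 4 or 5 array values, 6 held an array with a large gap to its nearest neighbour. A gap was large if it passed Dixon's 95% criterion against the range of its group. Chance gives about 1 in 20. The sets were signals, in each of the 4 groups, of the 15 called members with the smallest adjusted p. Signals of the 2 brightest and the 2 most different members not called were added, as was the median deviation of the 40 genes. Rsad2 was 197 in calorie restricted replicate 1, with the next value at 153. Gbp2 was 181 in wild type replicate 4 (next 125), 89.0 in calorie restricted replicate 1 (next 72.2) and 113 in leptin replicate 4 (next 154). Ifi35 was 351 in calorie restricted replicate 2 (next 314). Herc6 was 118 in leptin replicate 4 (next 49.8). The leptin minus calorie restriction calls of Rsad2 and Gbp2 were kept when any 1 array was left out.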

How the results depend on the processing

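Of 1270 gene values under an alternative, none reversed, 1115 kept their side of the threshold and 155 lost the call. The 2 main counts, 21 for leptin against calorie restriction and 22 for calorie restriction against wild type, each fell to 12 with the filter at the 60th percentile, which leaves fewer members to test, and stayed within 1.5 times under the other settings; without calorie restricted replicates 2 and 3 they were 19 and 20. With no filter on low signal the counts were 0 for ad libitum against wild type, 1 for leptin against ad libitum and 4 for calorie restriction against ad libitum. With only the 2 groups compared they were 0, 2 and 2. For ad libitum against wild type the count was 2 with the filter at the 60th percentile or with trend and robust moderation and 0 without calorie restricted replicates 2 and 3. For leptin against ad libitum it was 1 with the mean of all probe sets. The causes were not tested. With the replicate number as a block, 2 genes were called for leptin against ad libitum and 6 for calorie restriction against ad libitum. The block gave 23 for leptin against calorie restriction and 21 for calorie restriction against wild type, although the labels do not say that the numbers pair samples. Leaving out 1 array at a time gave 0 to 1 call for ad libitum against wild type, 1 to 5 for leptin against ad libitum, 2 to 13 for calorie restriction against ad libitum, 19 to 23 for leptin against calorie restriction and for calorie restriction against wild type, and 0 for leptin against wild type. Dim genes limit what can be seen: Zbp1, Mx1 and Mx2 lay under the filter.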
